A study of Rattus norvegicus with 4 samples.

Results

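Cytosolic ribosomal proteins, the protein parts of the ribosomes that translate nuclear-encoded mRNA, were measured in the rat hippocampus by 96 probes of 66 genes among the 41012 noncontrol probes of a 2-colour whole-genome array. The members were all probes whose accession resolved to a symbol that starts with Rpl or Rps and a digit, or to Rpsa, Rplp0, Rplp1 or Rplp2, without kinases of the Rps6k family and without pseudogene symbols. The groups came from 10-week-old male Wistar rats: sedentary rats in standard cages (10 rats), rats with a freely turning wheel (WR, 8 rats) and rats with a wheel under resistance (RWR, 8 rats), the last starting at 4.5 g in the first week and reaching 30% of body weight. Running was voluntary, around the clock, for 4 weeks. RNA was pooled within each group, in amounts that by the methods correspond to 3 replicates per pool, so the pools need not represent every rat. Chips 1 and 2 (Sed × WR) and chips 3 and 4 (Sed × RWR) each compared the same pair of pools with Cy3 and Cy5 swapped, so each comparison rests on 1 pool per group and carries no test between conditions. The number of chips limits only how precisely the pools are compared, and chips of the same pools carry no spread between rats.

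The large subunit holds the centre that joins amino acids, and the small subunit reads the mRNA. A stalk on the large subunit, built from Rplp0, Rplp1 and Rplp2, recruits the factors that drive translation. Cells make the parts of both subunits in matched amounts, and mRNAs of ribosomal proteins typically begin with an unbroken run of C and T, the terminal oligopyrimidine tract, through which growth signals set how strongly they are translated. In neurons, some of these mRNAs are also carried into axons and dendrites. The array held 57 probes of 36 large subunit genes, 36 probes of 27 small subunit genes and 1 probe of each of the 3 stalk genes. Of the genes 45 had 1 probe and 21 had several, up to 5 for Rpl21. Among the genes with no matched probe were Rpl12, Rpl23a, Rpl26, Rpl27a, Rpl34, Rpl36a, Rpl37, Rpl37a, Rpl7, Rpl7a, Rps16, Rps28 and Rps9. Ribosomal protein genes have many near-identical copies in the genome: the RefSeq table listed 728 pseudogene symbols for these genes, with a median of 11 per gene, and whether a probe also binds RNA of such a copy was not tested.

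The start of 6 of these genes is printed below to show the tract where it was found, and Rps6 as a gene whose window held no long run. Each line runs 5′ to 3′ on the transcribed strand from 10 bases before the annotated RefSeq start through the first 20 bases of the transcript (build GRCr8), with the longest run of C and T in capitals. Rpl13 had the sole called probe, Rpl19 and Rps18 are common reference genes, Rplp0 and Rplp1 form the stalk, and Rps6 is the phosphorylated protein read as a sign of growth signalling.
Rpl13, chr19:68062504-68062533, plus strand: cggtgcccgaTCCTTTCCgctcggccgttc
Rpl19, chr10:83519054-83519083, plus strand: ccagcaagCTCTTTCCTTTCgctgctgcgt
Rplp0, chr12:46718371-46718400, minus strand: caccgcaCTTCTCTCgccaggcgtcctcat
Rplp1, chr8:71290853-71290882, minus strand: cgcatgtgaTCCTTTCCTCagctgccgcca
Rps18, chr20:4933735-4933764, plus strand: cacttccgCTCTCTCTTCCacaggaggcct
Rps6, chr5:106420521-106420550, minus strand: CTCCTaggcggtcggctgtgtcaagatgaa
Of the 66 genes, 52 had such a window, in 53 windows. The median longest run of C and T was 10 bases in them and 4 bases in all 33469 windows of the table. A run of at least 8 bases was found in 34 of the 53 windows (64.2%) against 10.8% of all windows. The motif CTTTCC, which is itself part of such a run, was found on the transcribed strand in 26.4% of the windows of ribosomal protein genes and 1.15% of all windows, and on the other strand in 1.89% and 1.26%. Rps6 had a run of 5 bases, which lay before the annotated start. Whether the annotated start is the one used in this tissue was not tested, so the window does not show that Rps6 mRNA lacks the tract.

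All 96 probes exceeded background clearly (the scanner software's flag) in both dyes on all 4 chips, against 60.8% of all probes. Their spots were bright, with a median processed signal of 17008 against 65.3 over all probes, although brightness of different probes does not rank transcripts. The probes of Rpl28 (A_44_P778019) and Rps26 were dim, at mean signals of 58.7 and 113, and 4 of the 96 probes had a mean signal under 1000. Over all probes the log2 ratios of a pair, turned to running over sedentary, were correlated at -0.76 for Sed × WR and -0.69 for Sed × RWR, that is, most of a ratio on a single chip stayed with the dye and not with the pool. Each value is therefore given per chip, and the mean of a pair, in which a constant dye effect cancels, is called the running ratio. In a piece of whole tissue, fewer cells of a type and less RNA per cell cannot be told apart.

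Down-regulation past the cutoff was seen at a single probe. A probe was called when it was below 0.75-fold or above 1.5-fold of sedentary on both chips of a pair and had deposited p-values under 0.01 there, a p-value that describes the error of a single chip. In Sed × WR 1 of 96 probes was called lower, against 0.0293% of all probes, and 0 were called higher, against 0.00244%. In Sed × RWR 1 was called lower, against 0.0488% of all probes, and 0 were called higher, against 0.00975%. Without the p-value the counts were again 1 and 0, beside 0.337% lower and 0.212% higher of all probes in Sed × WR, and 1.39% lower and 0.0878% higher in Sed × RWR. It was probe A_44_P130780 of Rpl13, a large subunit protein, in both comparisons. As means of a pair, the other 95 probes lay between 0.908-fold and 1.09-fold in WR and between 0.893-fold and 1.04-fold in RWR. On a single chip, Rps26 (log2 ratio -0.45 on chip 1 and 0.37 on chip 2) and Rps19 (-0.43 on chip 3 and 0.17 on chip 4) passed the lower cutoff without doing so on the other chip, and none of them had a deposited p-value under 0.01 on any chip.

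**Figure D1:**
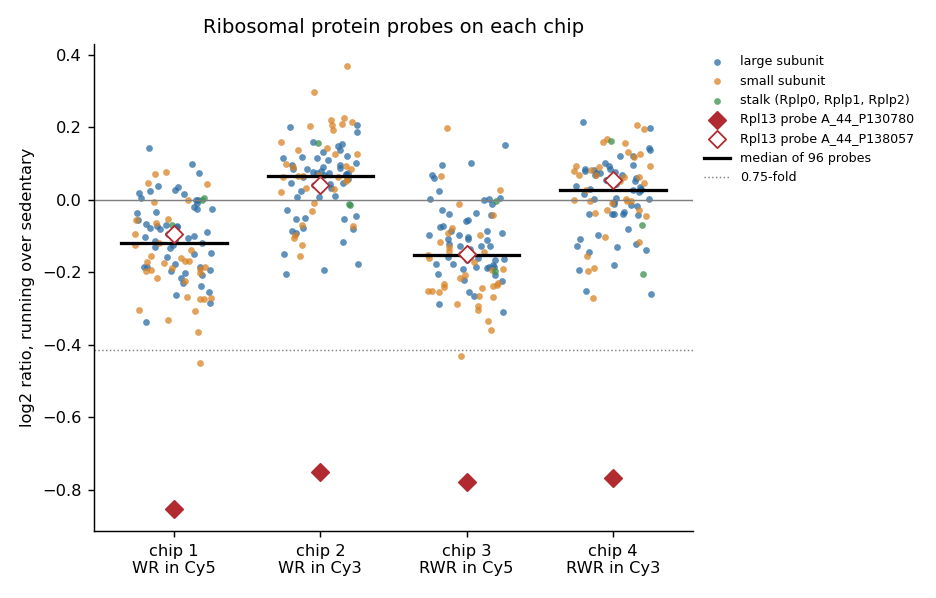
Log2 ratio of running over sedentary for the 96 ribosomal protein probes on each of the 4 chips, with the median as a black line, 0.75-fold as a dotted line and both Rpl13 probes as diamonds. The filled diamond lies between -0.85 and -0.75 on every chip, while the cloud of the other probes moves with the dye of the running pool, from a median of -0.12 on chip 1 to 0.07 on chip 2 and from -0.15 on chip 3 to 0.03 on chip 4.

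Rpl13 was read by 2 probes, and they differed. At probe A_44_P130780 the sedentary pool had processed signals of 13877, 14595, 18423 and 14361 on chips 1 to 4. The WR pool had 7679 and 8668 on chips 1 and 2, and the RWR pool had 10732 and 8434 on chips 3 and 4. All 4 running values lay below all 4 sedentary values. The sedentary values are 1 pool read on 4 chips, and the share of all probes that separate in this way was not counted. The log2 ratios were -0.85 and -0.75 in WR and -0.78 and -0.77 in RWR, a signal 42.7% lower in WR and 41.5% lower in RWR, with deposited p-values of 9.3e-05, 0.00048, 0.00031 and 0.00037. At probe A_44_P138057, whose accession names the same Rpl13 transcript, the sedentary signals were 10815, 9477, 11501 and 9066 and the running signals 10130, 9750, 10360 and 9405. Here the pools overlapped, the log2 ratios were -0.09 and 0.04 in WR and -0.15 and 0.05 in RWR, and the running ratios of -0.03 and -0.05 were smaller than the difference between the chips. The running ratios of the 2 probes were 0.78 apart in WR and 0.72 apart in RWR. Both probes were bright, and the RefSeq table listed 15 pseudogene symbols for Rpl13. Which part of the transcript each probe reads is not given in the sources used here. The sedentary pool took part on all 4 chips, so the WR and RWR values of this probe are not independent of each other.

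**Figure D2:**
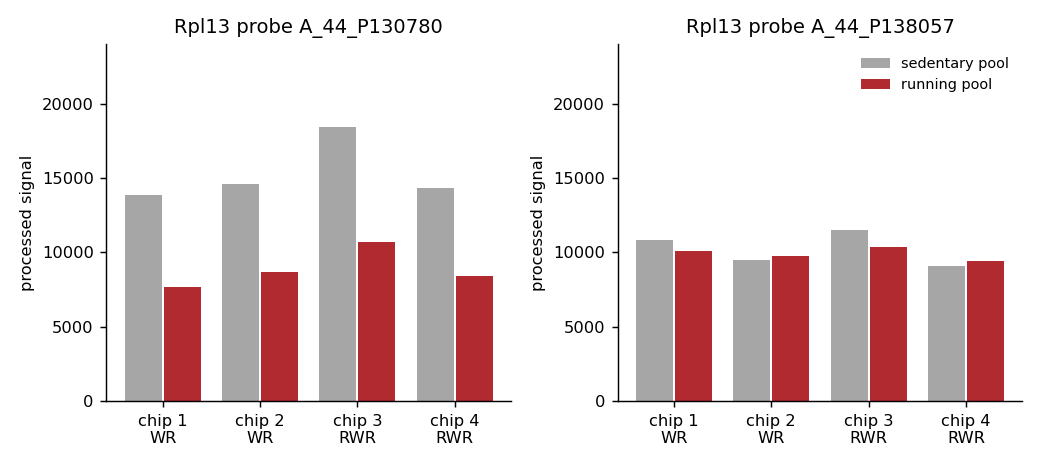
Processed signal of the sedentary pool (grey) and the running pool (red) at both Rpl13 probes on each chip, 1 bar per pool and chip. At A_44_P130780 the running bars reach 7679 to 10732 and the sedentary bars 13877 to 18423, and at A_44_P138057 the bars of both pools overlap.

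No other gene with several probes showed such a gap. Over the 21 genes with several probes (51 probes), the SD of the running ratio between probes of a gene was 0.10 in both comparisons, and the SD of gene means was 0.09 in WR and 0.08 in RWR. Without Rpl13 the SD between probes of a gene was 0.03 in both, beside 0.04 in WR and 0.03 in RWR for gene means. After Rpl13, the widest gaps were 0.13 for Rpl27 in WR and 0.18 for Rpl28 in RWR, the latter with the dim probe. In WR all probes of 14 genes had a running ratio below 0, those of 3 genes were above 0, and 4 genes had probes on both sides. In RWR the numbers were 17, 0 and 4. The dye term, which is the part of a chip's ratio that does not turn with the pools, differed more between probes of a gene than the running ratio did once Rpl13 was left out, with SDs of 0.07 in both pairs.

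**Figure D3:**
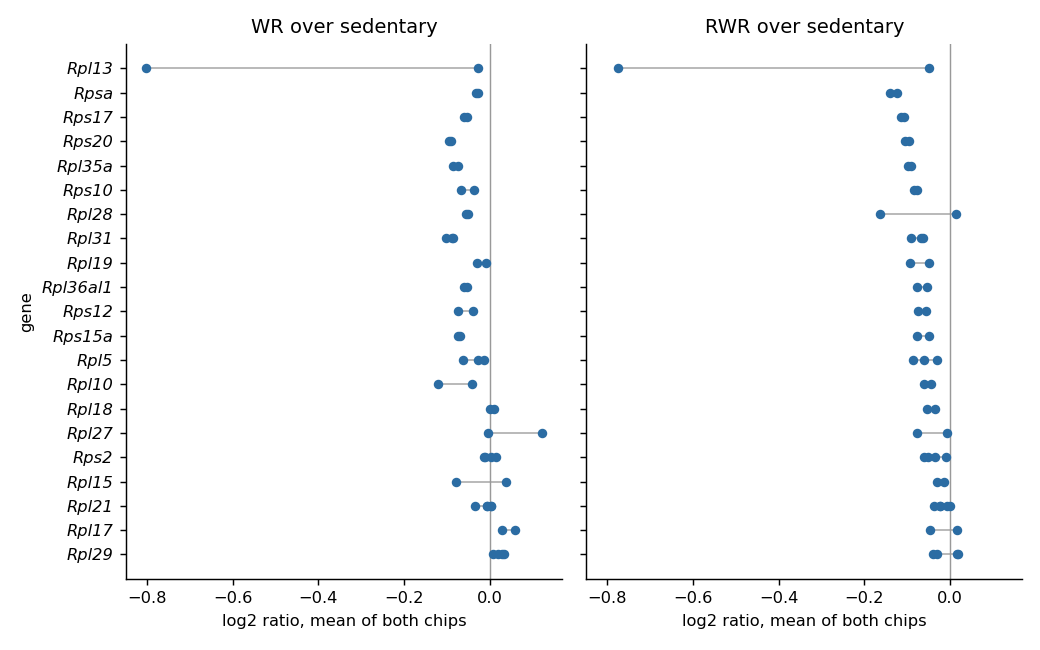
Running ratio (log2, mean of both chips) of each probe of the 21 genes with several probes, with a line joining the probes of a gene, for WR and RWR over sedentary. Rpl13 has probes 0.78 and 0.72 apart, and no other gene exceeds 0.13 in WR and 0.18 in RWR.

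As a family, ribosomal protein probes lay slightly below the sedentary level, by a few percent. The median running ratio was -0.03 in WR, or 2.26% below sedentary, and -0.06 in RWR, or 4.22% below sedentary. Over all probes it was 0.01 in WR and -0.00 in RWR. Of the 96 probes 72 had a running ratio below 0 in WR (75%), beside 44.8% of all probes and 48.5% of the 24953 that exceeded background. In RWR it was 87 (90.6%), beside 50.7% and 49%. The chips of a pair did not share the sign of the median: it was -0.12 on chip 1 and 0.07 on chip 2 in WR, and -0.15 on chip 3 and 0.03 on chip 4 in RWR. The shift of the family was therefore smaller than the difference between the chips of a pair, a difference that includes the dye term. That difference does not measure the error of the running ratio, which is not known. Nor can the shift be set against a spread between rats.

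Probes were also counted by the side of 0 on both chips of a pair. In Sed × WR 13 probes (13.5%) lay below 0 on both chips, beside 10.7% of all probes and 13.9% of those well above background. That share was near the background with the deposited normalization, but the count was 23 (24%, beside 11.4% of all probes) with normexp and loess and 21 (21.9%, beside 11.6%) with loess and no background correction. Above 0 on both chips were 5 probes (5.21%), beside 11.6% and 14.5%. In Sed × RWR 29 probes (30.2%, and 34.4% under either of these settings) of 25 genes lay below 0 on both chips, beside 14.8% and 16.2%, and 1 probe (1.04%) lay above 0, beside 12.4% and 16.7%. Among the 928 other probes that were brighter than the lower quartile of these 96, the median running ratio was 0.00 in WR and -0.01 in RWR, and 12.8% and 15.4% lay below 0 on both chips. The share below 0 in RWR was thus above that of all probes and of other bright probes, at a size of change well inside the cutoffs. Whether it differed between RWR and WR was not tested.

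**Figure D4:**
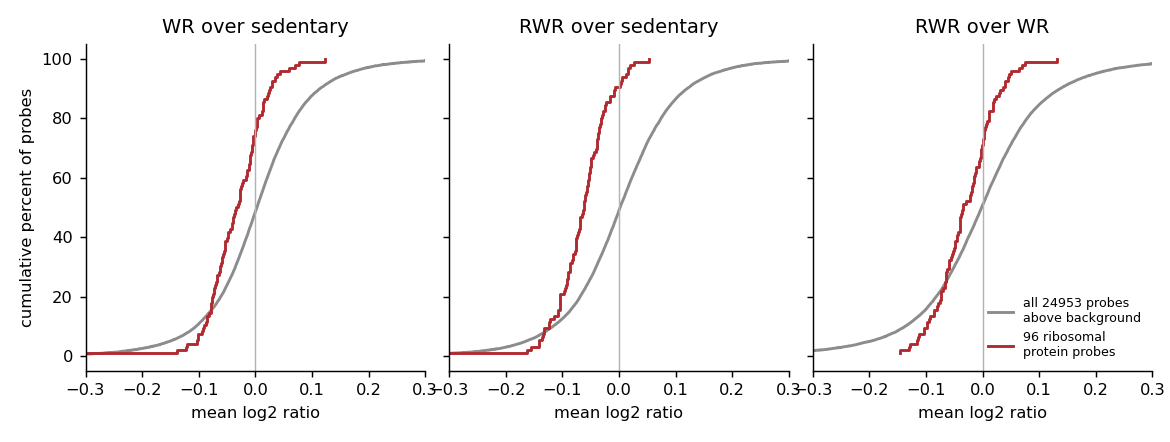
Cumulative percent of probes by mean log2 ratio for the 96 ribosomal protein probes (red) and all 24953 probes well above background (grey), shown between -0.3 and 0.3. The red curve lies left of the grey one over most of its range, with medians of -0.03 in WR, -0.06 in RWR and -0.03 in RWR over WR, and the called Rpl13 probe lies beyond the left edge in WR and in RWR.

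The dye term was larger than the running ratio at 78 of 96 probes (81.2%) in Sed × WR and at 66 (68.8%) in Sed × RWR, beside 70.3% and 67.6% of all probes. Its median was -0.08 in Sed × WR and -0.09 in Sed × RWR, so a pool labelled with Cy5 read lower at most of these probes than the same pool labelled with Cy3. The median over the 928 other bright probes was -0.01 and -0.02. Small subunit probes had the larger dye term, with medians of -0.14 and -0.12, against -0.08 and -0.07 for the large subunit.

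**Figure D5:**
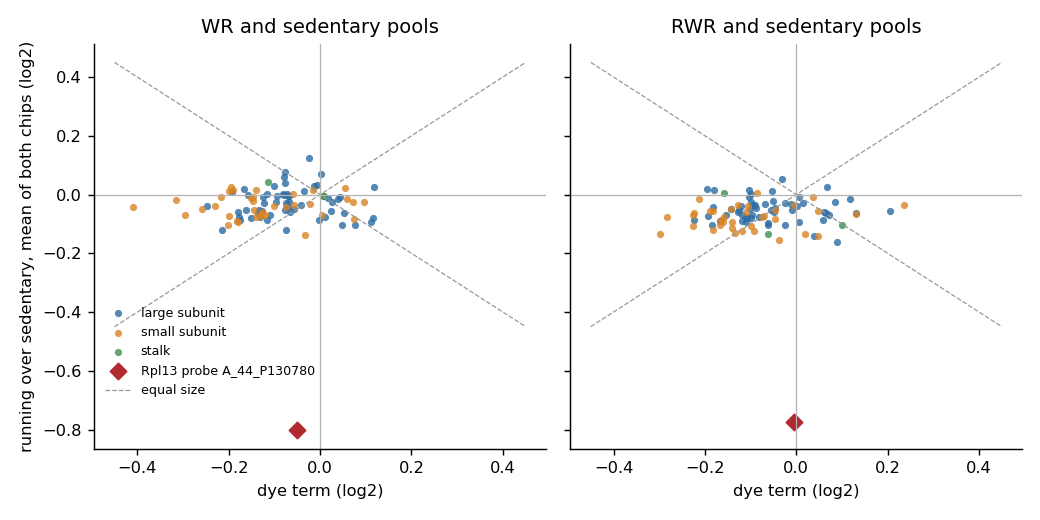
Running ratio (log2, mean of both chips) against the dye term (the difference of both chips divided by 2) for each ribosomal protein probe, coloured by subunit, with dashed lines where both are of equal size. Most points lie between the dashed lines to the left of 0, where the dye term is the larger, and the called Rpl13 probe lies far below them.

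Among large subunit genes the running ratio had a median of -0.03 in WR and -0.05 in RWR. Below 0 on both chips were 9 of 57 probes in WR and 15 in RWR, beside 10.7% and 14.8% of all probes and 13.9% and 16.2% of those well above background. Above 0 were 5 and 1, beside 11.6% and 12.4% of all probes. Rpl3, a core protein close to the centre where amino acids are joined, had log2 ratios of 0.00 and 0.15 in WR and -0.19 and 0.05 in RWR. Rpl4, which lines the exit tunnel of the new protein chain, had 0.07 and 0.07 in WR and -0.01 and -0.04 in RWR, with the WR chips above and the RWR chips below 0. Rpl10, which joins the subunit late in its assembly, had -0.20 and -0.04 in WR and -0.09 and 0.00 in RWR at A_44_P513994, and -0.11 and 0.03 in WR and -0.11 and -0.01 in RWR at A_42_P552949. In WR the family's 5th and 95th percentiles of the running ratio were -0.10 and 0.04. Rpl3 (0.08) and Rpl4 (0.07) lay above them and Rpl10 probe A_44_P513994 (-0.12) below. In RWR the percentiles were -0.14 and 0.01, and the running ratios of these genes lay between them.

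Rpl10a, which forms a separate mobile stalk of the large subunit, was the sole probe above 0 on both RWR chips, at 0.02 and 0.08, and it was at -0.07 and -0.09 in WR. Rpl23, which is also known to bind Mdm2, had -0.03 and -0.18 in WR and 0.15 and -0.26 in RWR. The 3 probes of Rpl31, a protein at the exit of the tunnel, gave close running ratios of -0.10, -0.09 and -0.09 in WR and -0.06, -0.09 and -0.07 in RWR, although the single chips ranged from -0.26 to 0.09. The running ratios of its probes were thus within 0.02 of each other in WR and 0.03 in RWR.

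Rpl27 had 0.10 and 0.15 in WR at A_43_P14014, the highest running ratio of the family in WR, and -0.00 and -0.01 in RWR. Its other probe, A_44_P463378, had -0.08 and 0.07 in WR and -0.16 and 0.00 in RWR, so the rise was not shared between the probes of the gene. Rpl28 had -0.19 and 0.08 in WR and -0.08 and -0.25 in RWR at the dim probe, and -0.03 and -0.08 in WR and -0.04 and 0.07 in RWR at A_44_P416862. Rpl15 had 0.04 and -0.19 in WR and 0.10 and -0.13 in RWR at A_42_P732189, a probe with a mean signal of 941.5. Its other probe, A_44_P365421, had -0.04 and 0.12 in WR and -0.10 and 0.04 in RWR. Their running ratios in WR were -0.08 and 0.04, on opposite sides of 0. The probes of Rpl17 had running ratios of 0.06 and 0.03 in WR and 0.02 and -0.05 in RWR, with chips of opposite sign in both comparisons. Of the 4 probes of Rpl29, A_44_P100996 had 0.03 and 0.04 in WR and -0.06 and -0.01 in RWR, and A_44_P651922 had 0.02 and 0.04 in WR and -0.04 and -0.04 in RWR, while A_42_P519770 and A_44_P279240 had chips of opposite sign in both comparisons.

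The reference genes Rpl19, Rpl32 and Rpl13a stood close to the family. Rpl19 had -0.13 and 0.12 in WR and -0.19 and 0.09 in RWR at A_43_P14985, and -0.10 and 0.05 in WR and -0.20 and 0.02 in RWR at A_44_P306185. Rpl32 had -0.20 and 0.07 in WR and -0.22 and 0.09 in RWR. Rpl13a, which is also part of a complex that silences translation after interferon, had -0.19 and 0.07 in WR and -0.18 and 0.02 in RWR. At these probes the sign followed the dye. Rpl22 had -0.13 and 0.01 in WR and -0.06 and -0.04 in RWR. A probe matched to Rpl37l1, a symbol for a copy of Rpl37, had -0.18 and 0.04 in WR and -0.10 and -0.18 in RWR.

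Among small subunit genes the median running ratio was -0.04 in WR and -0.08 in RWR. Below 0 on both chips were 4 of 36 probes in WR and 12 in RWR, beside 10.7% and 14.8% of all probes. Above 0 were 0 in both, beside 11.6% and 12.4%. The WR count below 0 was near the share of all probes. Rps29, a small zinc-binding protein, had -0.17 and -0.11 in WR and -0.12 and -0.15 in RWR, the lowest WR running ratio after the called probe, at -0.14. Its 4 chip values were on one side, 9.2% below sedentary in WR and 9.0% in RWR. Rps27a, which is made fused to ubiquitin, had -0.19 and 0.05 in WR and -0.19 and -0.12 in RWR. Rpsa, which is also known as a laminin receptor, had 0.07 and -0.12 in WR and -0.09 and -0.19 in RWR at A_44_P117107, and -0.05 and -0.01 in WR and -0.22 and -0.03 in RWR at A_44_P149036. Both Rpsa probes were below 0 on both RWR chips, at running ratios of -0.14 and -0.12.

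Rps6, the substrate of the Rps6k kinases, had 0.05 and -0.10 in WR and 0.07 and -0.20 in RWR. Rps18 had -0.19 and 0.21 in WR and -0.23 and 0.20 in RWR, with dye terms of -0.20 and -0.21 beside running ratios of 0.01 and -0.02. Rps27 had -0.30 and 0.10 in WR and -0.25 and 0.07 in RWR. Rps4x, encoded on the X chromosome, had -0.17 and 0.13 in WR and -0.24 and 0.13 in RWR. At each of these 4 genes the chips of a pair had opposite signs.

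At the stalk, Rplp0 had 0.00 and -0.01 in WR and -0.20 and -0.07 in RWR. Rplp2 had -0.07 and 0.16 in WR and -0.15 and 0.16 in RWR. Rplp1 was the sole member printed as 10 spots, which shows the error within a chip. Their means were 0.00 (SD 0.05) and -0.01 (SD 0.08) on chips 1 and 2, -0.00 (SD 0.12, 9 spots after 1 was flagged) on chip 3 and -0.20 (SD 0.05) on chip 4. On chip 4 all 10 spots of Rplp1 lay between -0.29 and -0.13, and on chip 3 they lay between -0.21 and 0.11. The chips of the RWR pair therefore differed by more than the SD between spots on either chip. Spots on a chip are not replicates of a condition.

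RWR was also set against WR through the sedentary pool, as the difference of chips with the same dye orientation, which assumes that the sedentary RNA was the same on all 4 chips. The median difference was -0.02 with the running pools in Cy5 and -0.04 with them in Cy3, and the mean of both had a median of -0.03 (2.34% lower). Below 0 in both orientations were 42 probes (43.8%), beside 28.8% of all probes and 28.9% of those well above background. Above 0 were 10 (10.4%), beside 23.4% and 28.1%. The 928 other bright probes had 38.7% below 0 in both orientations and 25% above 0, with a median of -0.01. The share below 0 was thus near that of other bright probes, while the share above 0 was lower than theirs. Rpl3 had differences of -0.19 and -0.10, and Rplp0 had -0.20 and -0.06. At the called Rpl13 probe the differences were 0.07 and -0.02, of opposite sign.

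Other parts of the translation machinery gave no call. In lists of mitochondrial ribosomal proteins (27 probes), initiation factors (48), elongation and release factors (9), ribosome biogenesis factors (39), other mRNAs with a terminal oligopyrimidine tract (26), the ribosomal proteins Fau and Rack1 outside the symbol rule (3) and Rps6k kinases (2), 0 probes were called in either comparison. Mitochondrial ribosomal proteins, which serve the translation of mitochondrial mRNA, had median running ratios of -0.03 in WR and -0.03 in RWR. Of their 27 probes 11 (40.7%) were below 0 on both chips in WR and 10 (37%) in RWR, beside 10.7% and 14.8% of all probes, while 3 and 2 were above 0. Their share below 0 was thus higher than that of the cytosolic family in both comparisons, and a raised share in RWR was not particular to the cytosolic family. The higher share did not go with a larger fall, since the cytosolic medians were -0.03 in WR and -0.06 in RWR. A probe is below 0 on both chips only where its fall exceeds its dye term, so the share also depends on the dye term. Fau and Rack1 had medians of -0.06 and -0.08, with 1 and 2 of 3 probes below 0 on both chips and 0 above. Both Rps6k kinase probes were below 0 on both WR chips and 1 of them on both RWR chips.

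The remaining lists had fewer probes below than above 0 on both WR chips. The other mRNAs with the tract had medians of 0.01 in WR and -0.02 in RWR, with 1 of 26 probes below and 6 above 0 on both chips in WR (3.85% and 23.1%, beside 10.7% and 11.6% of all probes), and 4 below and 4 above in RWR (15.4% each, beside 14.8% and 12.4%). Initiation factors had medians of 0.02 and 0.00, with 4 below and 10 above in WR (8.33% and 20.8%) and 5 below and 7 above in RWR (10.4% and 14.6%). Elongation and release factors had 0.04 and -0.02, with 2 below and 3 above in WR and 1 below and 3 above in RWR. Biogenesis factors had 0.03 and -0.00, with 0 below and 4 above in WR and 8 below and 2 above in RWR (20.5% and 5.13%).

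Markers of cell types were read beside these values, and no marker probe of oligodendrocytes, neurons, astrocytes, microglia or blood was called. Given how few of all probes were called, the absence of calls in such short lists says little. Of 4 oligodendrocyte marker probes (Mbp and Mobp, proteins of myelin), 2 were below 0 on both chips in WR and 3 in RWR, with running ratios from -0.14 to -0.07 in WR and from -0.27 to -0.07 in RWR, and all 4 were well above background. Their summed signal per chip was 19296 to 23613 in the sedentary pool and 17342 to 20646 in the running pools, lower in the running pool on each of the 4 chips. Probes of hippocampal neurons had medians of 0.03 and 0.04, those of astrocytes 0.01 and -0.02, and those of microglia 0.06 and 0.00. Of 7 choroid plexus probes, 2 of them well above background in WR and 4 in RWR, 1 (Ttr) was called lower in WR, and of 4 pituitary probes 1 (Prl, not well above background on every chip) was called lower in RWR. The part of these markers in the values of the ribosomal protein genes was not tested.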

How the data were processed

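Hippocampal RNA pools of sedentary, WR and RWR rats were labelled with Cy3 or Cy5 and hybridized to 4 chips with 60-base probes. The sources of both channels in the labels gave the groups. Both chips of a pair measured the same pools, as technical repeats; which rats the replicates in a pool came from is not given in the sources used here.

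The authors processed the scans with Agilent Feature Extraction 11.0.1.1, which subtracted background and normalized the dyes by LOWESS. The authors' processed signal is the resulting intensity per spot and dye, their deposited log10 ratio sets Cy5 over Cy3, and the deposited p-value and the error of the log ratio (used as a score in the self-test) come from the error model of a single chip. The series matrix of the authors equals log10 of one processed signal over the other within 5e-06, not turned for the dye swap.

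Control spots and spots flagged as outliers in either dye (118 to 140 per chip) were left out; 0 spots were saturated. By the dyes in the labels, ratios were turned to running over sedentary on the log2 scale, then averaged over spots of a probe. The running ratio is the mean of a pair and the dye term is the ratio with the running pool in Cy5 minus that with it in Cy3, divided by 2. A probe was called as described in the report. Unversioned accessions were looked up in the RefSeq table of GRCr8, for names only, since the array was designed on another build; 10768 probes matched 8899 symbols. The transcript starts printed come from RefSeq tables of GRCr8. The members, gene lists and call rules were chosen with earlier results of these data known. The genes named were those called, the 6 largest rises and falls in each comparison among probes with both chips on one side, the 6 genes with the widest range between probes, all probes of these genes, and a fixed list of core, reference and paralogue genes, of which Rpl3l, Rpl22l1, Rps27l, Rpl36a, Rpl36al and Rps19bp1 had no named probe. Genes given as examples of the difference between RWR and WR, and the dim probes, were chosen after their values were seen.

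The alternatives were no p-value filter, loess after normexp (offset 50) or after no background correction, median centring, the series matrix values, a filter on dim probes, the brightest probe of each gene, and each chip left out. The call rule was run on simulated chip pairs with noise scaled by the error of the log ratio and with no dye term. These data have a large dye term, so that run does not show how the rule performs on them. Some items of the gene lists are not reported here. The computations used Python 3.11.15 with numpy 2.4.6, pandas 2.3.3 and matplotlib 3.10.9, and limma 3.58.1 under R 4.3.3.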

Additional observations from a re-analysis of the deposited data

Results flagged for a closer look

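Among the named probes, a probe was singled out where both WR chips lay on one side of 0 and both RWR chips on the other. The share of all probes that meet this rule was not counted. The difference between the comparisons was not tested, and both share the sedentary pool. The RWR minus WR log2 ratio was 0.13 for Rpl10a (A_44_P140400), which was below 0 in WR and above in RWR. It was -0.13 for Rpl27 (A_43_P14014), -0.10 for Rpl4 (A_44_P537303), and -0.064 and -0.067 for the Rpl29 probes A_44_P100996 and A_44_P651922, all above 0 in WR and below in RWR. The chip 3 value of the Rpl27 probe was -0.00, so its side rests on a value near 0. The same holds for the Rpl4 probe, at -0.01 on chip 3, and for Rpl29 probe A_44_P100996, at -0.01 on chip 4. The other Rpl27 probe and the other Rpl29 probes were on opposite sides of 0 within each pair.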

How the results depend on the processing

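The counts of called probes (1 lower and 0 higher in each comparison) were the same under every alternative run, including each chip left out, where they stayed 1 to 1 and 0 to 0. The median running ratio was below 0 in both comparisons under each alternative except a single chip: without chips in turn it was -0.119 to 0.066 in WR and -0.154 to 0.027 in RWR, so the sign of the family's median depends on which dye the running pool carried. RWR over WR stayed between -0.041 and -0.024 without chips in turn.

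In WR the probes below 0 on both chips were 23 with normexp and 21 without background correction, both with loess, in place of 13, and those above 0 were 2 with the brightest probe of each gene in place of 5. With a chip left out, the count on the remaining chip was 25 to 79 below 0 and 17 to 71 above 0 in WR, and 40 to 84 below and 12 to 56 above in RWR. The median size of the dye term was 0.094 with normexp and 0.112 with the brightest probe in Sed × WR, in place of 0.099, and in Sed × RWR 0.089 with normexp, 0.093 without background correction, 0.103 with median centring and 0.103 with the brightest probe, in place of 0.10. Without Rpl13, a setting chosen after seeing the data, the SD between probes of a gene fell to 0.028 in WR and 0.032 in RWR, and the medians without its called probe were -0.031 in WR, -0.062 in RWR and -0.034 for RWR over WR. Of 454 values of the named probes under alternatives that keep all chips 443 moved by less than the SD between their chips and 11 by more. These counts are no measure of robustness, because several of the alternatives could hardly move a value. All 96 probes exceeded background, so the filter on dim probes removed none. The brightest-probe setting leaves a probe's own ratio as it was, and the series matrix holds the same signals. The SD between the chips of a pair also contains the dye term. With a chip left out, 49 of 160 values of the named probes had the opposite sign, none of them at the called probe.

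No paired analysis was possible because each group is 1 pool and the chip numbers of the groups mark no shared animals. Membership by a gene name column was not run, since the scanner files used here hold no such column. With 1 pool per group, no value carries an error across rats, and differences of a few percent are below the dye term of most of these probes.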
